A study of Mus musculus with 15 samples.

Results

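Cadherins and nonclustered protocadherins were examined in the brains of embryos that carry the K228E substitution in TBR1, a T-box transcription factor of early-born cortical neurons. The members were the protein-coding genes named *Cdh* or *Pcdh* followed by digits alone, which leaves out the clustered protocadherins and nonclustered *Pcdh11x*. The annotation holds 34 such genes. The deposited table lists 33 of them, all but *Cdh16*, among its 19475 genes, and all 33 had a mean of at least 5 normalized read counts over the embryos, so that all were among the 16507 genes tested. By structure they comprise 5 type I and 13 type II classical cadherins, 4 other cadherins, 3 δ1 and 5 δ2 protocadherins, and 3 other protocadherins.

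RNA came from 15 C57BL/6J mouse embryos at E16.5. There were 5 embryos of each genotype (WT, *Tbr1*+/K228E with 1 mutant allele, and *Tbr1*K228E/K228E with both alleles mutant), in each case 3 females, replicates 1 to 3, and 2 males, replicates 4 and 5. The mutation is a germline knock-in in the first exon of *Tbr1*, made with a floxed selection cassette that a protamine-driven Cre had removed, so that every cell of a mutant embryo carries it. The series text names the tissue as whole brain and the study's account of this experiment names it as forebrain. Poly(A) libraries gave 30.5 to 31.8 M normalized read counts per embryo (M, mega). Sequencing depth, estimated from what a single read is worth in each embryo, was 26.3 to 38.0 M reads.

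Cadherins are calcium-dependent adhesion molecules whose extracellular repeats bind cadherins on the neighboring cell, and whose tails, in the classical types, bind β-catenin and p120-catenin and through them the actin cytoskeleton. In the developing brain, neurons of a nucleus or layer tend to share a combination of type II cadherins, and the combination guides sorting, axon targeting, and synapse formation. The nonclustered δ-protocadherins adhere more weakly, and the δ2 members recruit the WAVE regulatory complex, which drives branching of actin.

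The His-Ala-Val sequence in the first extracellular repeat marks most type I classical cadherins and is absent from type II members, so the codons for it are shown to set the groups apart. Searched over the whole coding sequence, these codons occurred in frame in 4 of the 5 type I cadherins, in none of the 13 type II cadherins, in none of the 11 protocadherins, and in *Cdh26*. They began at codons 178 to 245 in the type I cadherins and at codon 449 of 763 in *Cdh26*, which is farther along the protein. Over all members and all positions that is 14.7% of 34 genes, against 5.07% of 21642 genes with a coding sequence in the GENCODE M21 annotation of GRCm38. In each of the 3 stretches of 51 coding bases printed here, capitals mark the His-Ala-Val codons, which lie in coding exons on the plus strand at chr2:179847229-179847237 (*Cdh4*), chr8:106656833-106656841 (*Cdh1*), and chr8:106537083-106537091 (*Cdh3*), and an intron interrupts the stretch upstream of them.
Cdh4: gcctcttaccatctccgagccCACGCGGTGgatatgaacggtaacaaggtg
Cdh1: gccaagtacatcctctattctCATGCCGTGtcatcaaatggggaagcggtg
Cdh3: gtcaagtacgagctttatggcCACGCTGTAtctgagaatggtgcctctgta

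TBR1 binds T-box elements, and its binding to promoters was not measured here, so a promoter was searched for letters only. The bases GGTGTGA on either strand, which form part of the T-box element, occurred within the 250 bases before a transcript start in 1 of the 22 members with a promoter window available (4.55%), against 3.84% of 27025 genes. The member was *Cdh7*, a type II cadherin of hindbrain and neural crest derivatives, at 1 of its 3 listed starts. The windows of *Cdh7* (chr1:109983473-109983722, plus strand, GRCm38.p6) and *Cdh8* (chr8:99416472-99416721, minus strand) are printed 5′ to 3′, and capitals mark the match. The window of *Cdh8* is shown because *Cdh8* had the smallest p between the mutant genotypes among the members, and these letters are not in it. Members without an available window, *Cdh4* among them, were not searched.
Cdh7: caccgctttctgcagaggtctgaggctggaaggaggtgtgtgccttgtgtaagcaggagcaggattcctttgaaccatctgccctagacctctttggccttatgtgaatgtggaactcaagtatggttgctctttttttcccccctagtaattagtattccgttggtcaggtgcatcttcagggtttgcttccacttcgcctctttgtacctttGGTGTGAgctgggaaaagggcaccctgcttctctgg
Cdh8: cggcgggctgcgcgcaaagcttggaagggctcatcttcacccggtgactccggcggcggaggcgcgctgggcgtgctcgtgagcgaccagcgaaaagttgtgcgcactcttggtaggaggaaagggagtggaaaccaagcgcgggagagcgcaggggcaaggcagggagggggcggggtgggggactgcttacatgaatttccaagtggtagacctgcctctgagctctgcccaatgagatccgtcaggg

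The counts of the mutated gene are set beside the genotype labels. *Tbr1* was at 2097 to 4871 normalized read counts in WT, 4738 to 8543 in *Tbr1*+/K228E, and 7148 to 16015 in *Tbr1*K228E/K228E embryos. Every *Tbr1*K228E/K228E embryo lay above every WT embryo, and *Tbr1*+/K228E embryos overlapped with both. The study reported higher *Tbr1* in *Tbr1*K228E/K228E embryos from these same libraries, so the labels are not checked independently. Before the family is described, the embryos themselves have to be, because marker genes of several tissues differed widely between them. The summed count of 10 forebrain genes ranged from 18637 in WT replicate 4 to 46788 in *Tbr1*+/K228E replicate 2. Hox genes mark the hindbrain and spinal cord and are silent in the forebrain, and the 18 listed here summed to 3966 in *Tbr1*+/K228E replicate 1, to 3277 in WT replicate 4, and to 1145 in WT replicate 1. The lowest sum was 7.77, in *Tbr1*K228E/K228E replicate 5.

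Markers of tissues outside the neural wall were summed in the same way. The sum of 12 meningeal genes, led by the collagen gene *Col3a1* (52.3 to 8865), was 482 in WT replicate 3, 838 in *Tbr1*K228E/K228E replicate 3, and 669 in *Tbr1*K228E/K228E replicate 4, and between 4544 and 33771 in the other 12 embryos. The sum of 8 choroid plexus genes, led by the transthyretin gene *Ttr* (29.2 to 22879), was lowest in *Tbr1*K228E/K228E replicate 4 (964) and highest in *Tbr1*+/K228E replicate 1 (25303). The endothelial sum of 12 genes, led by *Kdr* (1152 to 2409), spanned 6208 to 11444. The 12 surface epithelial genes, led by *Perp* (107 to 185), summed to 198 to 517, the 8 genes of the Schwann lineage to 1010 to 1671, and the 11 skeletal muscle genes of the table to 491 to 1658. The last sum was led by *Pax7*, which the dorsal midbrain and hindbrain also express, at 2.58 to 1074. No gene of these lists that the table holds was at 0 in every embryo, which is true of all genes of the table, whose smallest sum was 8.92. None of the 8 scores, each the mean log2 value of a list's genes, passed 0.05 between genotypes, with two-sided exact permutation p between 0.198 and 0.937 over the 24 comparisons.

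In WT embryos the family was led by *Cdh2*, which encodes N-cadherin, the adhesion molecule of the neuroepithelium and of most neurons. Levels of different genes are compared per kilobase of merged exons. *Cdh2* stood at 1521 ± 158 normalized read counts per kilobase (SD, n = 5), which is 18.9% of the summed family. *Cdh4*, or R-cadherin, a type I cadherin of retinal and forebrain neurons that can also bind N-cadherin, followed at 666 ± 20.3 (SD, n = 5). *Pcdh8*, a δ2 protocadherin that takes part in the internalization of N-cadherin at synapses, stood at 546 ± 31.8 (SD, n = 5), and the type II cadherin *Cdh24* at 511 ± 18.3 (SD, n = 5), the latter 2 neighbors differing by little more than their SDs.

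Below them, 12 members from *Cdh8* (412 ± 46.4 per kilobase, SD, n = 5) to *Cdh22* (231 ± 54.2, SD, n = 5) formed a gradual series in which adjacent means differed by less than their SDs. These 12 include the 3 δ1 protocadherins among the members and the other 4 δ2 members. The rest are the type II cadherins *Cdh8*, *Cdh11*, *Cdh5*, and *Cdh22*, and *Cdh13*, which encodes the lipid-anchored T-cadherin. A step down led to *Cdh10* at 92.6 ± 7.17 (SD, n = 5), followed by *Cdh20*, *Cdh7*, and *Cdh9*, also type II cadherins. *Cdh1* (E-cadherin) and *Cdh3* (P-cadherin), adhesion molecules of epithelia, stood at 36.1 ± 27.2 and 13.6 ± 8.27 (SD, n = 5), and *Cdh17*, *Cdh19*, and *Cdh26* at 4.89, 3.95, and 3.12 per kilobase. The order depends on the length used, since with the longest transcript *Cdh13* (856 per kilobase) and *Pcdh10* (781) rank above *Cdh4* (756), while *Cdh2* stays first at 2534. The step at *Cdh10* is also absent with that length, since *Cdh10* (247) then ranks above *Cdh22* (231) and *Cdh7* (176) follows.

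**Figure D1:**
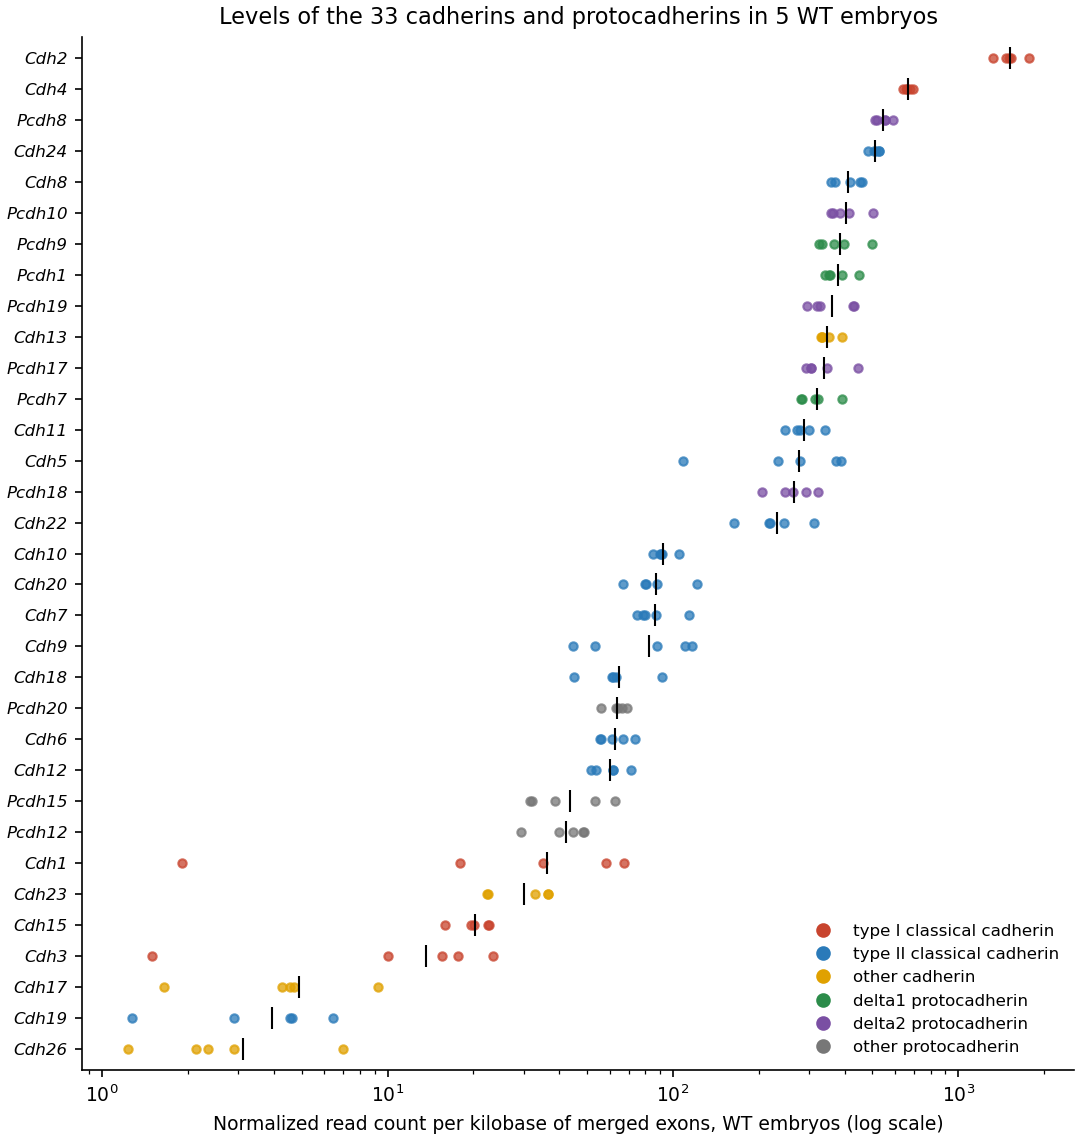
Normalized read count per kilobase of merged exons (x axis, log scale) of the 33 members (y axis, ordered by the WT mean) in the 5 WT embryos, with 1 point per embryo, a black tick at the mean, and colors for structural groups. *Cdh2* lies apart at the top, *Cdh4* has tightly packed points, and *Cdh1* and *Cdh3* spread widely.

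No member changed past the adjusted threshold in any comparison of genotypes. Between *Tbr1*+/K228E and WT embryos 0 of 33 members passed an adjusted p of 0.05 (limma with Benjamini-Hochberg adjustment over 16507 genes), where 0% of all tested genes passed. Between *Tbr1*K228E/K228E and WT embryos 0 members passed, where 0.127% of all genes did (21 genes), and between *Tbr1*K228E/K228E and *Tbr1*+/K228E embryos 0 members passed, where 0.0788% did (13 genes). With unadjusted p under 0.05 in limma, the members numbered 0 in the first comparison (background 1.79%), 2 in the second, *Cdh4* and *Cdh19*, both lower (3.23%), and 3 in the third, *Cdh8* and *Pcdh8*, both higher, and *Cdh4*, lower (3.3%).

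Fold changes across the family were small. The median log2 fold change over the 33 members was -0.07 in *Tbr1*+/K228E relative to WT embryos, beside -0.002 over all tested genes, and 24 of the 33 values lay below 0, as did 51.2% of all genes. In *Tbr1*K228E/K228E relative to WT embryos the median was -0.03, beside -0.002, with 21 of the 33 below 0 against 51.3%. Both comparisons share the WT embryos. Relative to WT, 10 of 10 forebrain genes lay above 0 in *Tbr1*+/K228E embryos (median 0.21) and 9 of 10 in *Tbr1*K228E/K228E embryos (median 0.12). Of 14 hindbrain and spinal cord genes, 12 and 13 lay below 0 in the same order (medians -1.79 and -1.52). The part of tissue in the fold changes of the members was not tested. Between the mutant genotypes the median was 0.02 and 15 of the 33 lay below 0, against 49.8%. The widest interval in each comparison was that of *Cdh1* (SE 1.08), at a mean of 141 counts over the embryos. *Cdh17*, *Cdh3*, and *Cdh19* followed, at means of 19.4, 62.5, and 11.5 counts. The largest fold change in size in each comparison was that of *Cdh19*.

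**Figure D2:**
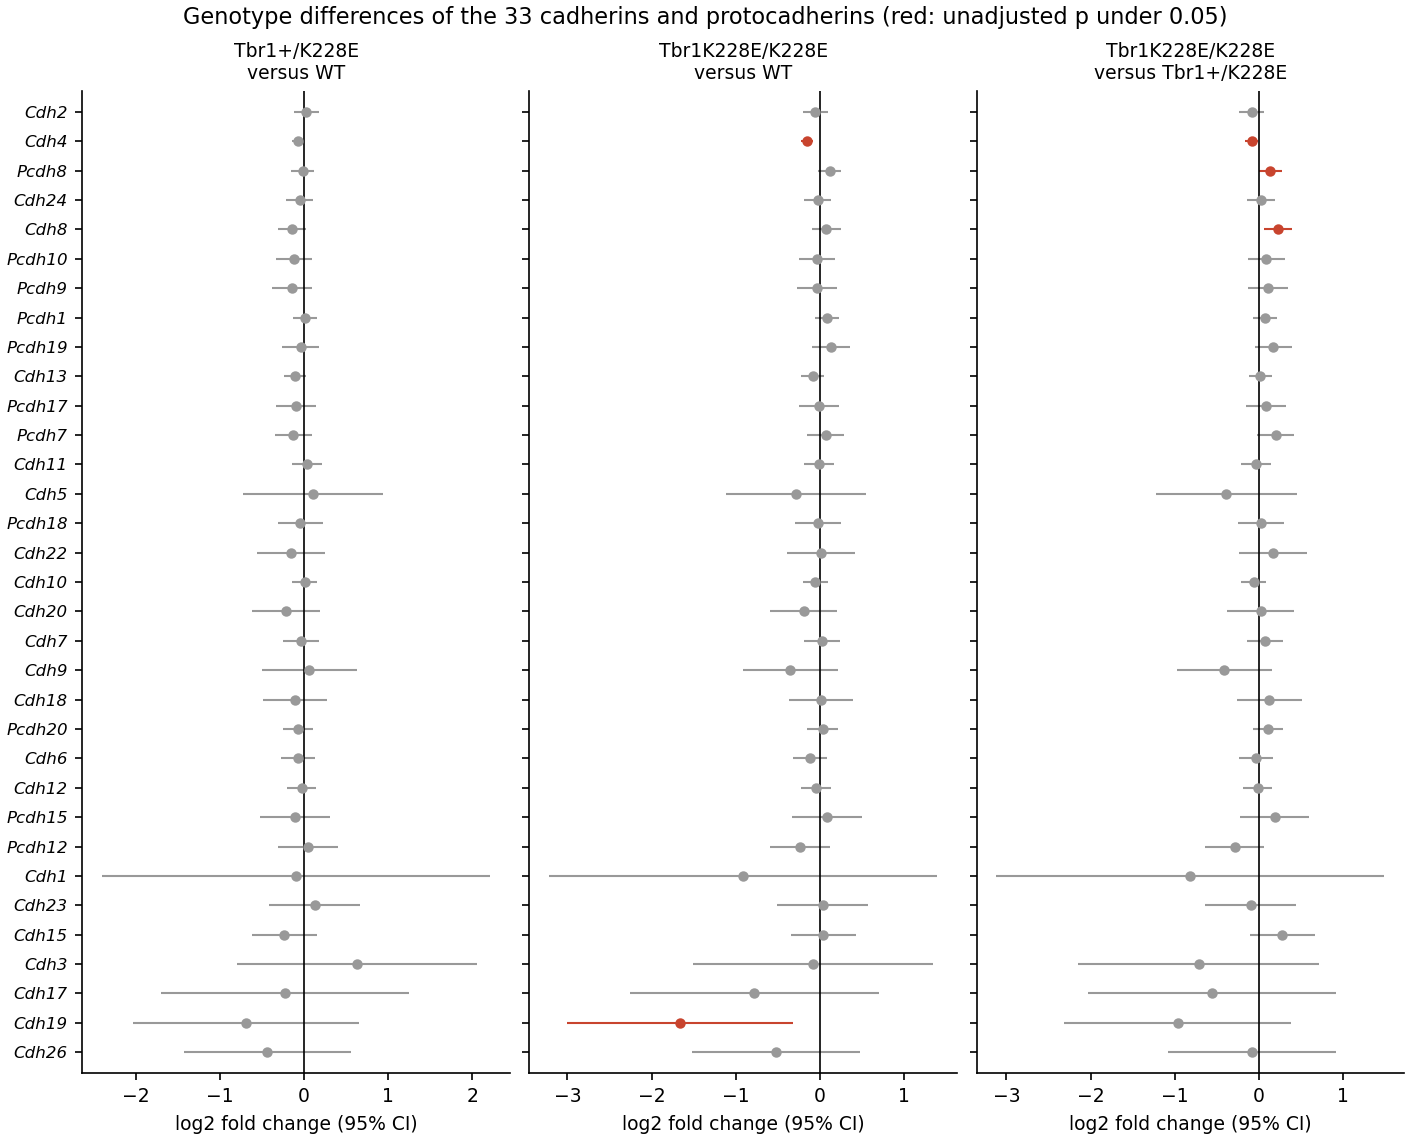
Log2 fold change of the 33 members with its 95% confidence interval (x axis, limma) for the 3 comparisons of genotypes, ordered by the WT level per kilobase, with members of unadjusted p under 0.05 in red. The interval of *Cdh4* in *Tbr1*K228E/K228E relative to WT embryos (-0.23 to -0.08) is narrow and lies below 0, and the intervals of *Cdh1*, *Cdh3*, *Cdh17*, and *Cdh19* are the widest.

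*Cdh4* had the smallest p of all members between *Tbr1*K228E/K228E and WT embryos. Its normalized read count in WT replicates 1 to 5 was 4807, 4771, 5020, 4922, and 4635. In *Tbr1*+/K228E replicates it was 4519, 4393, 4489, 4826, and 4775, and in *Tbr1*K228E/K228E replicates 4258, 4219, 4420, 4413, and 4358. All 5 *Tbr1*K228E/K228E embryos lay below the lowest WT embryo, among females and among males alike, while *Tbr1*+/K228E embryos overlapped with both other genotypes. *Cdh4* was 1 of the 45 genes (0.273% of those tested) that were lower without overlap in this comparison.

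The means of *Cdh4* were 4831 ± 147 in WT, 4600 ± 189 in *Tbr1*+/K228E, and 4334 ± 91.3 in *Tbr1*K228E/K228E embryos (SD, n = 5). The log2 fold change of *Tbr1*K228E/K228E relative to WT embryos was -0.16 (SE 0.034, 95% interval -0.23 to -0.08), and its p ranked 31 among 16507 genes. The exact permutation test, two-sided, gave p = 0.00794, the smallest that 5 against 5 embryos allow, while the adjusted p of limma was 0.189. Relative to WT, *Tbr1*+/K228E embryos differed by -0.07 (exact permutation p = 0.0794), and the log2 difference between the mutant genotypes was -0.09 (exact permutation p = 0.0238). The call depends on the processing, since after quantile normalization the adjusted p of limma for *Tbr1*K228E/K228E against WT embryos was 0.0341 and with an empirical null 0.0180. The study corrected its p-values with an empirical null before adjustment, and the null used here only approximates that step, as a normal distribution fitted to the central 75% of test statistics in size. With the forebrain score as a covariate the adjusted p was 0.0863, with a log2 fold change of -0.16. Over the 13 alternatives that kept every embryo of the comparison it ran from 0.0180 to 0.404, and in 11 of them *Cdh4* did not pass.

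*Cdh4* was also the steadiest member within genotypes. The SD of its log2 value around the genotype means was 0.046, and 5.71% of 3117 genes with a similar mean had a smaller one. *Cdh13* (0.104) and *Pcdh8* (0.104) came next, neither of them unusual among genes of their level (65.2% and 62.2% of similar genes had a smaller SD). The largest Pearson's r in size of *Cdh4* with any of the 8 marker scores was -0.29, with the choroid plexus score, and none passed.

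*Cdh8*, a type II cadherin of cortical and striatal projection neurons, had its smallest p between the mutant genotypes. Its counts were 2779, 2855, 3504, 3242, and 3554 in WT, 3120, 2577, 2689, 3019, and 2929 in *Tbr1*+/K228E, and 3330, 2962, 3421, 3694, and 3372 in *Tbr1*K228E/K228E replicates 1 to 5. *Tbr1*+/K228E replicates 2 and 3 lay below all WT embryos and *Tbr1*K228E/K228E replicate 4 above them, and the mutant genotypes overlapped through the lowest *Tbr1*K228E/K228E embryo. The means were 3187 ± 359, 2867 ± 227, and 3356 ± 262 (SD, n = 5). *Tbr1*K228E/K228E exceeded *Tbr1*+/K228E embryos by 0.23 on the log2 scale (SE 0.079, exact permutation p = 0.0238, adjusted p of limma 0.996), and relative to WT the differences were -0.15 in *Tbr1*+/K228E (exact permutation p = 0.135) and 0.08 in *Tbr1*K228E/K228E embryos, whose 95% interval of -0.09 to 0.25 includes 0. The last difference ranged from 0.03 (without WT replicate 1) to 0.12 (without *Tbr1*K228E/K228E replicate 2) leaving out each embryo. Over the 15 embryos *Cdh8* correlated with the choroid plexus score with r = -0.65 (rho = -0.63, which did not pass), and r was -0.30 without the 3 embryos of low meningeal sums. In *Tbr1*K228E/K228E relative to *Tbr1*+/K228E embryos, 7 of the 8 choroid plexus genes had log2 fold changes below 0, with a median of -0.96, as did all 12 meningeal genes (median -1.35) and all 12 endothelial genes (median -0.23). Their part in the differences of *Cdh8* and *Pcdh8* was not tested.

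Each of *Cdh13*, *Pcdh8*, and *Cdh19* completed the 3 smallest p of a comparison. *Cdh13*, which guides axons and blood vessels through T-cadherin, was at 3906 ± 283 in WT, 3634 ± 325 in *Tbr1*+/K228E, and 3675 ± 178 in *Tbr1*K228E/K228E embryos (SD, n = 5), with log2 differences from WT of -0.11 and -0.09, both with intervals that include 0. Without WT replicate 4 these were -0.06 and -0.04, and without *Tbr1*+/K228E replicate 2 the first was -0.06. *Pcdh8* was at 2479 ± 144, 2450 ± 180, and 2692 ± 225 (SD, n = 5) in the same order. Its highest values, 3003 and 2857, were those of *Tbr1*K228E/K228E replicates 3 and 4, which had low meningeal sums, while WT replicate 3, with the lowest sum of all, was at 2510, within the WT range. The part of these tissues in the difference was not tested. The difference of *Pcdh8* between the mutant genotypes was 0.14 (exact permutation p = 0.111), and that between *Tbr1*K228E/K228E and WT embryos 0.12 (exact permutation p = 0.103). The former was 0.08 with the hindbrain and meningeal scores in the model, and the latter 0.08 without *Tbr1*K228E/K228E replicate 3.

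*Cdh19*, a type II cadherin of Schwann cell precursors, had few reads. Its counts were 27.5, 19.4, 12.4, 19.8, and 5.43 in WT, 5.89, 22.5, 20.6, 2.92, and 5.89 in *Tbr1*+/K228E, and 6.61, 3.12, 1.02, 1.95, and 16.8 in *Tbr1*K228E/K228E replicates 1 to 5. The groups overlapped, and the log2 difference between *Tbr1*K228E/K228E and WT embryos was -1.66 (SE 0.632, exact permutation p = 0.0556, adjusted p of limma 1.0). With a pseudocount of 10 it was -0.78, and leaving out each embryo it ranged from -2.11 to -1.33. All 8 genes of the Schwann lineage list had log2 fold changes below 0 in this comparison, with a median of -0.23. The same held for all 12 endothelial genes (median -0.13) and for 10 of 12 meningeal genes (median -0.97). None of these genes passed the adjusted threshold, and their part in the result was not tested. In these bulk samples, fewer cells of a type and less RNA per cell cannot be told apart.

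**Figure D3:**
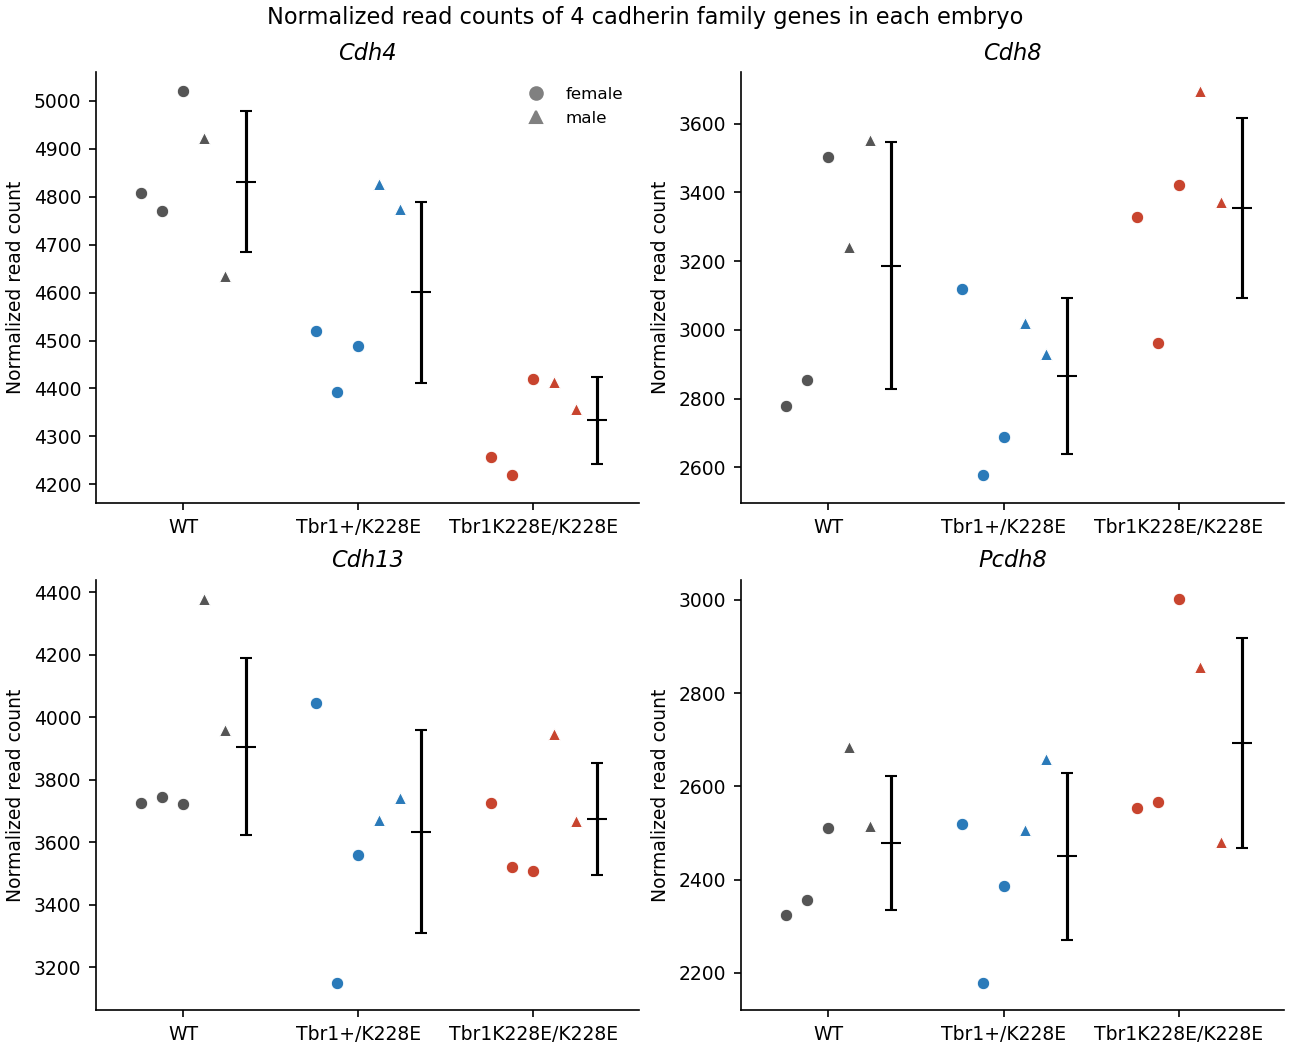
Normalized read counts (y axes, not starting at 0) of *Cdh4*, *Cdh8*, *Cdh13*, and *Pcdh8* in each embryo by genotype, with circles for females, triangles for males, and the mean with its SD (n = 5) beside each group. The 5 *Tbr1*K228E/K228E values of *Cdh4* (4219 to 4420) lie below all WT values (4635 to 5020), and the other 3 genes overlap between genotypes.

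No member besides *Cdh4*, *Cdh8*, *Cdh19*, and *Pcdh8* had an unadjusted p under 0.05 in a comparison of genotypes. All 5 δ2 protocadherins lay below WT in *Tbr1*+/K228E embryos, by -0.12 to -0.02 on the log2 scale, and above *Tbr1*+/K228E in *Tbr1*K228E/K228E embryos, by 0.03 to 0.17, where 51.2% and 49.8% of all genes lay below 0. Both comparisons share the *Tbr1*+/K228E embryos, and *Tbr1*+/K228E replicate 2 was the lowest of its genotype for all 5 genes. Without it the difference of *Pcdh8* from WT was 0.02. Forebrain genes lay above 0 for 10 of 10 in *Tbr1*+/K228E relative to WT embryos (median 0.21). Between the mutant genotypes 7 of 10 lay below 0 (median -0.11). *Pcdh10*, *Pcdh17*, *Pcdh18*, and *Pcdh19* passed negatively by r with the forebrain score, as described below. The part of tissue in these differences was not tested. The 3 δ1 members had log2 fold changes from -0.15 to 0.01 in *Tbr1*+/K228E and from -0.03 to 0.08 in *Tbr1*K228E/K228E relative to WT embryos. *Cdh2* differed from WT by 0.03 (95% interval -0.12 to 0.17) in *Tbr1*+/K228E and by -0.06 (95% interval -0.20 to 0.09) in *Tbr1*K228E/K228E embryos.

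The partners of the family were taken as 4 lists. Of the 11 tested catenin genes, which link cadherins to actin, 0 passed the adjusted threshold in any comparison of genotypes, and the median log2 fold changes relative to WT were 0.01 in *Tbr1*+/K228E and -0.02 in *Tbr1*K228E/K228E embryos. *Ctnnal1*, an α-catenin-like gene, had the smallest p of this list in both comparisons with WT (log2 fold changes -0.17 and -0.14), followed in *Tbr1*K228E/K228E embryos by *Ctnna3*, which encodes αT-catenin (0.37, SE 0.388, on means of 11.8 and 15.3 counts). Of the 11 genes of the WAVE regulatory complex, 0 passed. *Wasf1*, which encodes the neuronal WAVE1 subunit, differed between *Tbr1*K228E/K228E and WT embryos by 0.15 (SE 0.052, adjusted p of limma 1.0), and *Abi3*, a subunit expressed by microglia, had means of 45.5 counts in WT, 20.3 in *Tbr1*+/K228E, and 27.5 in *Tbr1*K228E/K228E embryos, with log2 differences from WT of -1.26 (SE 0.536, adjusted p of limma 0.999) and -0.70 (SE 0.536, adjusted p of limma 1.0). Of the 8 sheddase genes, including *Adam10*, which cuts N-cadherin, and the γ-secretase subunits, 0 passed, and log2 fold changes relative to WT ran from -0.10 for *Aph1a* to 0.10 for *Aph1b*, both in *Tbr1*K228E/K228E embryos.

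Of the 21 tested genes in a list of other cadherin superfamily genes, *Pcdh11x* among them, 0 passed. *Dsc3*, a desmosomal cadherin, was at a mean of 21.2 counts in WT, 20.6 in *Tbr1*+/K228E, and 42.8 in *Tbr1*K228E/K228E embryos, and every *Tbr1*K228E/K228E embryo lay above every embryo of the other 2 genotypes (log2 fold change 1.01 relative to WT, SE 0.276, adjusted p of limma 0.596). *Cdhr1*, a photoreceptor cadherin that olfactory bulb neurons also express, was at 416 in WT, 432 in *Tbr1*+/K228E, and 214 in *Tbr1*K228E/K228E embryos, a log2 difference from WT of -0.84 (SE 0.332, adjusted p of limma 1.0). Genes that were higher without overlap made up 0.321% of those tested relative to WT and 0.491% relative to *Tbr1*+/K228E embryos.

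Between embryos of the same genotype, some members varied by an order of magnitude. The SD of log2 values within genotypes was 1.93 for *Cdh1*, 1.21 for *Cdh17*, and 1.18 for *Cdh3*, and 99.0%, 92.8%, and 94.3% of genes with a similar mean had a smaller SD. *Cdh1* ranged from 8.73 to 309 in WT, from 23.2 to 258 in *Tbr1*+/K228E, and from 11.9 to 378 in *Tbr1*K228E/K228E embryos. The embryos with *Cdh1* below 20 were WT replicate 3 and *Tbr1*K228E/K228E replicates 3 and 4, those with low meningeal sums. Just above that cut were *Tbr1*+/K228E replicate 4 (23.2) and *Tbr1*K228E/K228E replicate 2 (25.8), whose meningeal sums were 4544 and 7598. *Cdh5*, which encodes VE-cadherin of endothelial junctions, had an SD of 0.70, larger than that of 99.1% of similar genes.

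These members moved with vascular and meningeal markers. Over the 15 embryos, Pearson's r and Spearman's rho of each member with each score were tested by 100000 permutations, with Benjamini-Hochberg adjustment over 264 pairs, and both measures come from the same libraries and share their scaling. Of the 264 pairs, 50 passed by r and 36 by both. The smallest r in size that passed was 0.64, a size reached by 51 of the 264 pairs (19.3%) and by 10.4% of the pairs of all tested genes with the same scores, each score's own genes left out. *Cdh5* followed the endothelial score with r = 0.98 and rho = 0.96 and the meningeal score with r = 0.97 and rho = 0.99, each with a permutation p of 1e-05, the smallest that can be given (adjusted p = 0.00033 for r, n = 15). Without the 2 embryos farthest from the median score, r was 0.97 and 0.96. *Cdh3* followed the choroid plexus score with r = 0.96 and rho = 0.89, and r was 0.93 without 2 embryos. P-cadherin is known from epithelia, and the score comprises genes of the choroid plexus epithelium. *Cdh3* also followed the meningeal (r = 0.93), endothelial (r = 0.90), and surface epithelial (r = 0.89) scores, so this relation is not particular to the choroid plexus.

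*Cdh1* followed the endothelial score with r = 0.92 (rho 0.92) and the meningeal score with r = 0.91 (rho 0.94), and *Cdh17*, the liver-intestine cadherin, with r = 0.86 (rho 0.90) and 0.85 (rho 0.84). *Pcdh12*, the vascular endothelial protocadherin, followed the endothelial score with r = 0.80 (rho 0.88). The 3 embryos with low meningeal sums stood apart on the meningeal score. On the endothelial score they were the lowest without a clear gap (8.56 to 8.71, the next embryo 8.88), and on the choroid plexus score WT replicate 3 (5.29) and *Tbr1*K228E/K228E replicate 4 (4.92) stood apart but *Tbr1*K228E/K228E replicate 3 (6.77) did not. Over the other 12 embryos r was 0.95 for *Cdh5* and the endothelial score, 0.99 for *Cdh5* and the meningeal score, 0.91 for *Cdh3* and the choroid plexus score, 0.93 for *Cdh1* and the meningeal score, and 0.72 for *Pcdh12* and the endothelial score. *Cdh3* with the meningeal score fell from r = 0.93 to 0.64. *Pcdh8* went the other way, with r = -0.70 for the endothelial and -0.69 for the meningeal score, and -0.58 and -0.63 over the 12 embryos. For the meningeal, endothelial, choroid plexus, and surface epithelial scores, only the 22 pairs that had passed by r over all 15 embryos were repeated. Over the 12 embryos all 22 kept their sign and 15 passed by r (permutation p, adjusted over the 22). Because these pairs were chosen by passing and the 12 embryos are among the 15, the repeat is not independent support. The 7 that did not were *Pcdh8* with the endothelial score and with the surface epithelial score (-0.65 to -0.28), *Cdh1* with the choroid plexus score (0.80 to 0.52), *Cdh1*, *Cdh17*, and *Cdh5* with the surface epithelial score (0.77 to 0.42, 0.74 to 0.36, and 0.85 to 0.56), and *Cdh8* with the choroid plexus score.

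**Figure D4:**
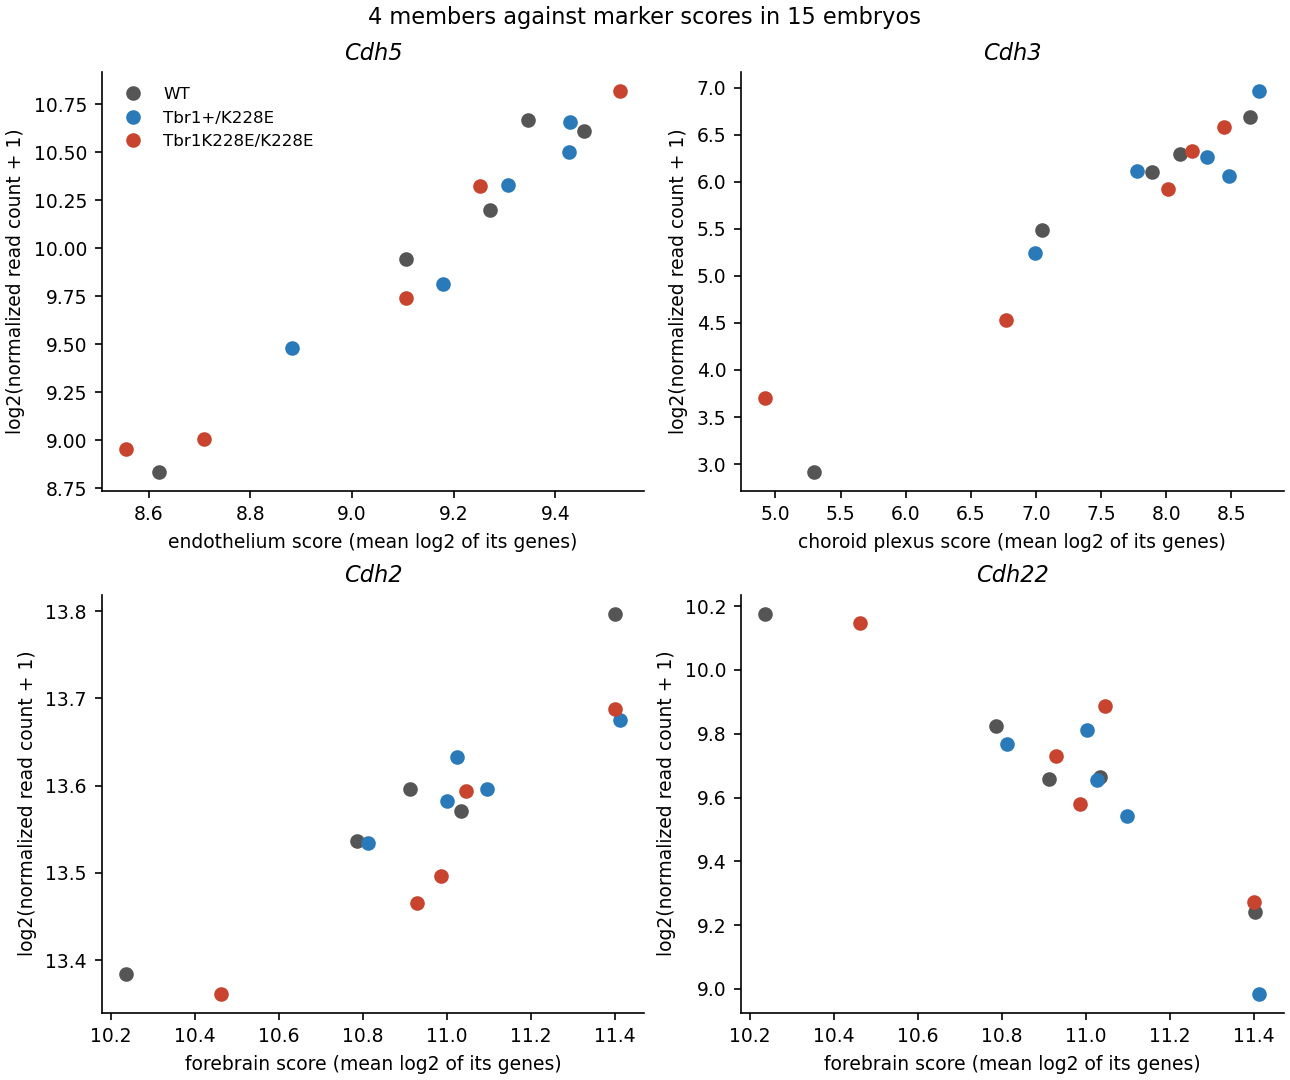
Log2(normalized read count + 1) of *Cdh5*, *Cdh3*, *Cdh2*, and *Cdh22* (y axes) against the mean log2 value of a marker list (x axes) in the 15 embryos, colored by genotype. *Cdh5* rises with the endothelial score (r = 0.98), *Cdh3* with the choroid plexus score (r = 0.96), and *Cdh2* with the forebrain score (r = 0.90), *Cdh22* falls with it (r = -0.91), and the genotypes intermingle.

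Other members followed the forebrain score. *Cdh2* correlated with it positively, with r = 0.90 and rho = 0.85 (r = 0.82 without WT replicate 4 and *Tbr1*K228E/K228E replicate 2, the embryos farthest from the median). It was the only member of 33 that passed in this direction, and 13 passed in the other, while an r of at least 0.64 in size was positive for 9.99% and negative for 10.4% of all tested genes. The largest negative values were those of *Cdh22* (r = -0.91, rho = -0.79), a type II cadherin, *Pcdh9* (r = -0.89, rho = -0.87), a δ1 protocadherin, and *Pcdh18* (r = -0.89, rho = -0.89), a δ2 protocadherin, and without the same 2 embryos r was -0.88, -0.81, and -0.90. Of the other 10, *Cdh18* (-0.87), *Cdh20* (-0.83), *Pcdh10* (-0.82), *Cdh7* (-0.80), *Cdh6* (-0.76), and *Pcdh17* (-0.74) had the largest r in size, and *Pcdh15* (-0.73), *Pcdh7* (-0.71), *Cdh13* (-0.67), and *Pcdh19* (-0.64) complete them. For *Cdh7*, *Cdh13*, and *Pcdh19* rho did not pass, and without the same 2 embryos r was -0.55, -0.77, and -0.46, with -0.49 for *Pcdh15*. The median r of all 33 members with the forebrain score was -0.53, beside -0.02 over all tested genes. *Cdh22* itself was 1157 in WT replicate 4 and 1132 in *Tbr1*K228E/K228E replicate 2, where the forebrain sums were lowest (18637 and 22219), and 505 in *Tbr1*+/K228E replicate 2, where that sum was highest.

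Members that passed with the hindbrain and spinal cord score were *Cdh20* (r = 0.74), *Cdh18* (0.67), and *Cdh15* (0.66), all of them positive. Without WT replicate 4 and *Tbr1*+/K228E replicate 1, where this score was farthest from its median, r was 0.50, 0.45, and 0.73, so that the relations of *Cdh20* and *Cdh18* rest partly on those embryos, and rho of *Cdh20* did not pass (adjusted permutation p = 0.0504). *Cdh15*, or M-cadherin, known from muscle and cerebellum, also followed the score of the muscle list, led by *Pax7* (r = 0.67, rho = 0.71). With that score 5 members passed positively by r, the largest being *Cdh22* (0.73), and *Cdh2* negatively (-0.68), but of these 6 rho passed for *Cdh15* alone, and without the 2 embryos farthest from the median score r was 0.38 to 0.56 for the 5 members. *Cdh19* followed the Schwann lineage score (r = 0.70, rho = 0.72), with which *Cdh1* (0.77), *Cdh5* (0.71), *Cdh3* (0.65), and *Cdh17* (0.64, rho not passing) also passed, and the endothelial score (r = 0.66, rho = 0.68, and r = 0.70 over the 12 embryos).

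**Figure D5:**
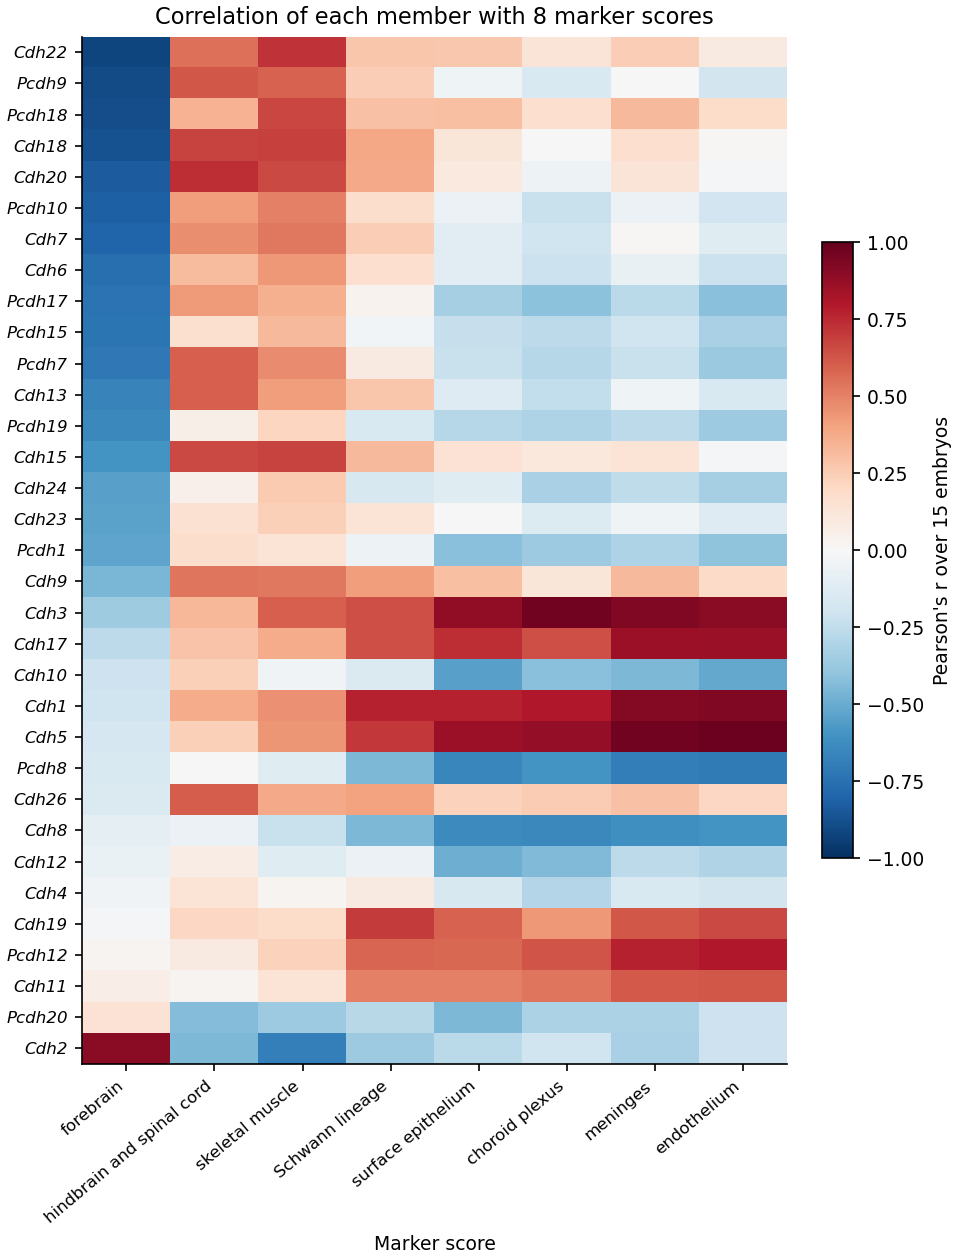
Pearson's r over the 15 embryos (color scale from -1 to 1) of the 33 members (y axis, ordered by r with the forebrain score) with 8 marker scores (x axis). *Cdh2* alone is strongly positive in the forebrain column, and *Cdh1*, *Cdh3*, *Cdh5*, and *Cdh17* form a block of positive values with the meningeal and endothelial scores.

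Between males and females 0 members passed the adjusted threshold, where 0.0788% of all genes passed. With genotype in the model, 10 of the 33 members had an unadjusted p under 0.05 in limma, all of them higher in males, beside 6.23% of all tested genes in that direction. With the empirical null the count was 0. They were chosen after their values were seen. Of these 10, 4 are δ2 protocadherins, the X-linked *Pcdh19* (log2 difference 0.21, SE 0.070), *Pcdh18* (0.25), *Pcdh10* (0.20), and *Pcdh17* (0.21), and the others are *Cdh6* (0.19), *Pcdh15* (0.38), *Pcdh1* (0.12), *Cdh23* (0.44), *Cdh8* (0.13), and *Cdh13* (0.10). The adjusted p of limma lay between 0.410 and 0.452. *Pcdh15* and *Cdh23* encode the partners that form the tip links of hair cells.

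Marker genes also leaned one way in this comparison, none past the adjusted threshold, with 9 of 10 forebrain genes below 0 in males (median log2 difference -0.26), 13 of 14 Hox genes (-1.24), and 7 of 8 choroid plexus genes (-0.75). With the forebrain score in the model 7 members had an unadjusted p under 0.05, 6 of them higher in males, beside 8.11% of all tested genes in either direction. With the hindbrain and meningeal scores there were 18, 17 of them higher, beside 22% of all genes. Without WT replicate 4, a male with the lowest forebrain sum, the count was 5 (6.32% of all genes), and without *Tbr1*K228E/K228E replicate 4, also a male, it was 5 as well (8.41%). *Pcdh19*, whose loss causes an epilepsy of heterozygous females, was at 3421, 3090, and 3346 in the female WT and at 4529 and 4463 in the male WT embryos, at 3660, 3086, and 3762 in the female and 3758 and 3877 in the male *Tbr1*+/K228E embryos, and at 3721, 4386, and 3975 in the female and 4561 and 3800 in the male *Tbr1*K228E/K228E embryos. In WT embryos the 2 males lay above the 3 females, and the sexes overlapped in both mutant genotypes, narrowly in *Tbr1*+/K228E embryos (3758 against 3762). With so few embryos such a separation carries little weight, and the share of all genes that separate in this way was not counted. Whether the difference between the sexes depends on genotype was not tested.

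The members lie on 11 chromosomes of GRCm38, with 8 on chromosome 8, 5 each on chromosomes 14 and 15, and 1 to 3 on each of the others. *Cdh4* spans chr2:179442431-179899373 on the plus strand, on the chromosome that also carries *Tbr1*, and *Cdh8* spans chr8:99024471-99416471 on the minus strand. The 5 type II cadherins of chromosome 15, *Cdh6*, *Cdh9*, *Cdh10*, *Cdh12*, and *Cdh18*, lie between 13028701 and 23474418. None of them had an unadjusted p under 0.05 in a comparison of genotypes.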

How the data were processed

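Per the labels and the methods of the study, the authors quantified reads with Salmon 0.11.2 on GRCm38 with GC bias correction, summed them to genes with tximport, and divided them by DESeq2 1.22.2 size factors in R 3.5.3, and the deposited values are this normalized signal. Because 31.7 to 58.7% of low values were whole multiples (tolerance 0.05), no count model was fitted. Symbols and coordinates came from GENCODE M21 (19452 of 19475 identifiers matched). Genes were tested with limma 3.58.1 in R 4.3.3 (lmFit, eBayes with a trend) on log2(value + 1), which understates changes of low genes, with all 15 embryos in one fit, and in two-sided exact permutation tests. Embryos were the replicates. The members and lists were chosen with earlier results of these data known. Named members are *Cdh4* and *Cdh8*, the 3 smallest p of each genotype comparison, the 3 highest levels, the 3 largest and 3 smallest spreads, and the 3 largest r in size with a score. For each list of partners they are the 2 smallest p between *Tbr1*K228E/K228E and WT embryos. Others were named after their values were seen. Promoters are RefSeq windows, without the bases after the start. The fit was tested on simulated data. Alternatives were other pseudocounts, filters, scalings, covariates, robust eBayes, a replicate block, the compared genotypes alone, leaving out each embryo, and, added after seeing the data, an empirical null, the forebrain score as a covariate, and the correlations over 12 embryos. Protein sequences were not used here. The most abundant gene of 3 marker lists is not reported here.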

Additional observations from a re-analysis of the deposited data

Results flagged for a closer look

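In 99 groups of 5 embryos, 3 values of members lay far from the others of their genotype by Dixon's criterion, which chance alone meets in about 1 of 20 groups. *Pcdh10* was 4567 normalized read counts in *Tbr1*+/K228E replicate 2, the lowest of its genotype, where the other 4 embryos had 6051 to 6717. *Pcdh19* was 3086 in the same embryo, where the others had 3660 to 3877. *Pcdh20* was 309 in *Tbr1*K228E/K228E replicate 1, where the others had 366 to 376. *Tbr1*+/K228E replicate 2 had the highest forebrain sum of all embryos (46788), and the part of tissue in its low values was not tested.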

How the results depend on the processing

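In no alternative did a member pass an adjusted p of 0.05 between WT and *Tbr1*+/K228E embryos, between the mutant genotypes, or between the sexes. Between *Tbr1*K228E/K228E and WT embryos 1 member, *Cdh4*, passed with quantile normalization and 1, again *Cdh4*, with the empirical null, and its log2 fold change ranged from -0.17 to -0.14 leaving out each embryo (adjusted p 0.152 to 0.467, limma). Counts of all genes between *Tbr1*K228E/K228E and WT embryos were 12 with these genotypes alone, 43 with the empirical null, 46 with the forebrain score, and 12 to 22 leaving out each embryo. Between the mutant genotypes they were 0 with the empirical null, 29 with the forebrain score, and 6 to 17 leaving out each embryo, and between *Tbr1*+/K228E and WT embryos 1 with the forebrain score. Between males and females they were 20 with the hindbrain and meningeal scores, 7 with the empirical null, and 10 to 24 leaving out each embryo, with 24 without *Tbr1*K228E/K228E replicate 2. The cause of these changes was not tested. *Pcdh8* between *Tbr1*+/K228E and WT embryos (log2 difference -0.02) changed sign to 0.023 with the hindbrain and meningeal scores and ranged from -0.048 to 0.023 leaving out each embryo, above 0 without WT replicate 4 (0.011) and without *Tbr1*+/K228E replicate 2 (0.023). *Cdh13* between the mutant genotypes (0.02) changed sign to -0.00077 with those scores, to -0.0014 with the forebrain score, and ranged from -0.031 to 0.059 leaving out each embryo, below 0 without *Tbr1*+/K228E replicate 2 (-0.031) and without *Tbr1*K228E/K228E replicate 4 (-0.0066). Members with an unadjusted p under 0.05 numbered 0 to 2 between *Tbr1*+/K228E and WT embryos leaving out each embryo, 1 (without *Tbr1*K228E/K228E replicate 3) to 4 (without WT replicate 4 or *Tbr1*K228E/K228E replicate 5) between *Tbr1*K228E/K228E and WT embryos, 1 (without *Tbr1*+/K228E replicate 4) to 6 (without *Tbr1*K228E/K228E replicate 5) between the mutant genotypes, and 5 to 14 between the sexes, where the empirical null gave 0. Pairs of members and scores that passed numbered 37 to 53 in the alternatives. Embryos that share a number share their sex and nothing else that the labels state. Deviations from the genotype means correlated over genes with r from 0.02 to 0.51 between *Tbr1*K228E/K228E and WT embryos, below 0.1 for 1 of 5 numbers. Of the 10 embryos of a comparison, 2 to 5 correlated best with their own number, with 5 between *Tbr1*K228E/K228E and WT embryos. The main fit did not pair embryos by number, and whether embryos of a number share more than their sex was not tested. With the replicate block the count between the mutant genotypes was 2. Estimated depth limits mainly members with low counts, such as *Cdh19* and *Cdh26*.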
